A study of Mus musculus with 6 samples.

Results

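The Myc network is a set of basic helix-loop-helix leucine zipper transcription factors that compete for the partner protein Max, and its mRNAs were measured here in mouse embryonic fibroblasts (MEF) that lacked either of the RNA-binding proteins TIA1 and TIAR. Probes were taken as members when the scanner files named them for Myc, Mycn, Max, Mxd1, Mxd3, Mxd4, Mxi1 or Mnt and did not mark them as controls. This gave 10 probes (11 spots) for 8 genes, out of 34797 gene names and 55681 probes on the array. Total RNA of immortalized MEF was labelled with Cy3 and hybridized to 6 arrays, 2 for each of 3 groups. The groups were wild type MEF (WT), of strain W4 by the labels, MEF with a TIA1 knock-out (TIA1 KO), labelled BALB/c, and MEF with a TIAR knock-out (TIAR KO), labelled C57BL/6. The study describes the 2 arrays of a group as different biological samples from independent experiments. Whether these came from separate embryos or separately immortalized lines is not given in the sources used here, so each p-value measures the spread between these samples only. The effect of a lost gene cannot be told apart from those of strain or cell line, nor loss of TIA1 from the row of the slide, because both TIA1 KO arrays lay in row 2 and the other 4 in row 1. Levels are given as normalized log2 intensity, in which a difference of 1 is a 2-fold change. Intensity measures mRNA and not protein or translation.

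In the textbook model, Myc and the closely related N-Myc (Mycn) bind DNA only as dimers with Max, at the E-box CACGTG, and raise the transcription of genes for ribosome production, metabolism and cell division. Mxd1, Mxd3, Mxd4, Mxi1 and Mnt also pair with Max and bind the same sites, but recruit Sin3 and histone deacetylases and repress. Fibroblasts that leave the cell cycle lose Myc and gain Mxd proteins. TIA1 and TIAR bind U-rich stretches of mRNA and hold back translation, and Myc mRNA is known as a target of TIAR at that step.

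Several promoters of the network carry its own binding site. The table of RefSeq promoters (GRCm38.p6, 250 bases before to 50 bases after each gene start) held 7 of the 8 members, and CACGTG, which reads the same on both strands, stood in 3 of them, Max, Mnt and Mxd4. Of all 32851 promoters of this length, 2349 (7.15%) held these letters, and counted by gene symbol 2187 of 27025 (8.09%). The windows of 30 bases around the site are shown for those 3 members and for Dnph1 and Pes1, the 2 target genes described below that were called against WT and also have the site. They run 5′ to 3′ on the strand of the gene, with the site in capitals. The windows lie at chr12:76962234-76962263 (minus strand) for Max, chr11:74830789-74830818 (plus) for Mnt, chr5:34187912-34187941 (minus) for Mxd4, chr17:46496760-46496789 (plus) for Dnph1 and chr11:3963965-3963994 (plus) for Pes1.
Max: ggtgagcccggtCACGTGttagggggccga
Mnt: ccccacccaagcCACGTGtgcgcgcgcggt
Mxd4: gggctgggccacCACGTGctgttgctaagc
Dnph1: gctttcccaggtCACGTGgtagcggcggca
Pes1: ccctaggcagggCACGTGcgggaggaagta
The site began 3 bases before the start of Max, 123 before that of Mnt and 219 before that of Mxd4. A match describes these letters and not binding, which was not measured.

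The targeted genes and the identity of the cells were checked first. Tial1, which encodes TIAR, was read by 2 probes. On the probe at chr7:135583306-135583365 (mm9) it measured 11.71 and 11.09 in WT, 11.85 and 11.49 in TIA1 KO, and 10.00 and 9.65 in TIAR KO. Both TIAR KO arrays were below the other 4, and the difference from WT of -1.58 ± 0.26 (SE) passed the test (limma adjusted p = 0.0254), but not without WT array 1 (0.0603), TIAR KO array 1 (0.0763) or TIAR KO array 2 (0.124), nor with the 75th percentile scaling (0.0714). The brighter Tial1 probe was at 13.22 in the single WT array that kept its spot and at 9.57 and 11.60 in TIAR KO, a difference of -2.63 ± 0.87 with an adjusted p of 0.20. Tia1 was lower in TIA1 KO on 2 of its 3 probes, at -1.47 ± 0.79 (adjusted p = 0.288) and -1.62 ± 0.42 (adjusted p = 0.116), and neither passed. On the brightest of these the WT arrays themselves lay far apart, at 10.72 and 8.54, against 7.87 and 8.44 in TIA1 KO. The third Tia1 probe lay the other way, at 7.44 and 7.25 in WT and at 7.88 and 8.54 in TIA1 KO. Its fitted difference of 0.87 ± 0.28 did not pass (adjusted p = 0.149). Only TIA1 KO array 2 was well above background on it, so no bound on the fold is given. Whether these probes lie within the deleted parts of the genes is not given in the sources used here.

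Of 9 fibroblast markers fixed as a list, 7 and 8 were well above background in the WT arrays, 8 and 8 in TIA1 KO, and 9 and 9 in TIAR KO. Pdgfra, the receptor of most fibroblasts for platelet-derived growth factor A, was not well above background in either WT array. Thy1 was not well above background in WT array 1 or in either TIA1 KO array. The summed log2 level of the list was 114.20 and 112.58 in WT, 134.91 and 135.73 in TIA1 KO, and 144.45 and 145.15 in TIAR KO. The brightest probe of the list was that of S100a4 in both WT arrays and in TIAR KO array 2, and that of Col1a2 in the other 3, which does not rank the genes by amount of mRNA. Of the list, 6 genes rose in TIA1 KO and 7 in TIAR KO, and 0 fell, where 4.51% and 7.18% of all genes were called when each was read from its brightest probe. Of the markers of other cell types some were at background and others well above it. The macrophage genes Ptprc and Adgre1 and the endothelial gene Cdh5 were not well above background on any array, and of the epithelial genes Epcam was above it only in TIA1 KO array 2 and Cdh1 only in the TIAR KO arrays. The brightest probes of the macrophage, endothelial and epithelial lists, those of Itgam (11.47 to 13.65 over the 6 arrays), Kdr (11.23 to 11.65) and Krt19 (12.15 to 13.26), were well above background on all 6 arrays, as was the macrophage marker Cd68 (10.15 to 11.66). Of 5 epithelial markers 2 rose in TIA1 KO and 3 in TIAR KO, of 5 macrophage markers 1 rose in TIA1 KO (Itgam) and 0 in TIAR KO, and of 4 endothelial markers 0 were called in either.

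The arrays of the 3 groups differed in brightness before normalization. Median spot intensity was 152 and 140 in WT, 458 and 218 in TIA1 KO, and 136 and 119 in TIAR KO. Well above background on the 2 arrays of each group were 23569 and 26295 probes (WT), 16021 and 19996 (TIA1 KO) and 24796 and 26011 (TIAR KO), and no spot was saturated. After normalization the standard deviation between arrays of a group, over all probes, was 0.273 for WT, 0.442 for TIA1 KO and 0.285 for TIAR KO. The TIA1 KO values below therefore rest on arrays with fewer detected probes and a wider spread. Of the 10 member probes, 5 were well above background on all 6 arrays, 4 on some of them and 1, that of Mxi1, on none.

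**Figure D1:**
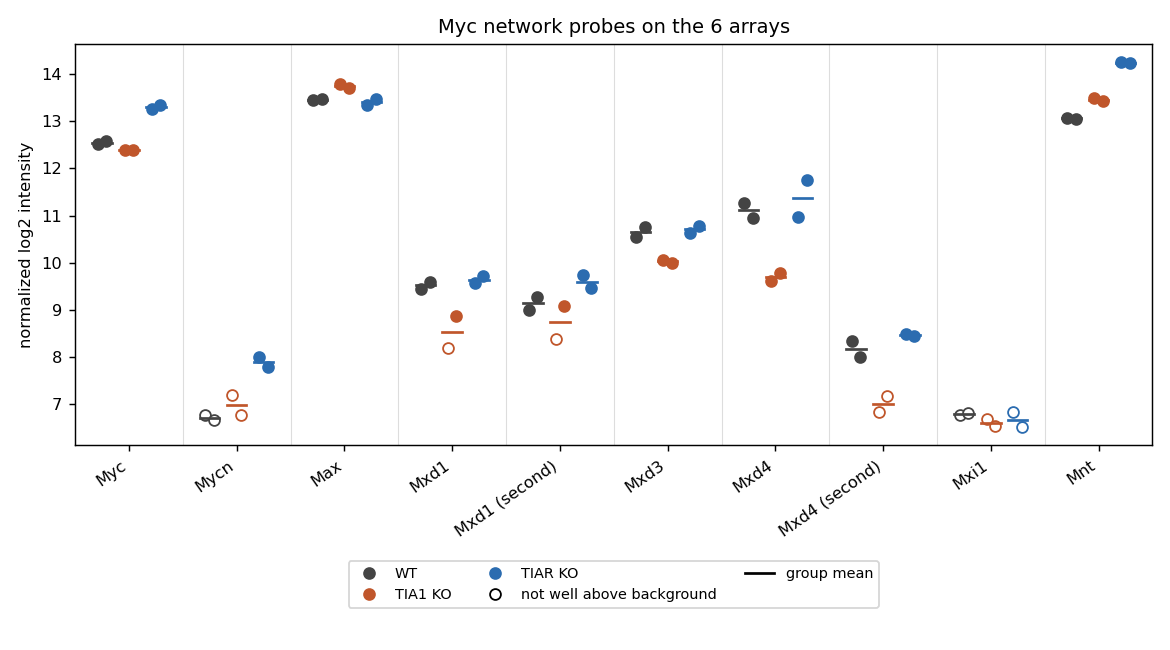
Normalized log2 intensity (vertical axis) of the 10 member probes (horizontal axis) on the 6 arrays. Each point is an array, coloured by group, open where the probe was not well above background, and the short line is the mean of the 2 arrays. Myc, Mycn and Mnt have their highest 2 arrays in TIAR KO, and both Mxd4 probes have their lowest 2 in TIA1 KO.

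A probe was called when its limma p, adjusted over all 55681 probes by the Benjamini-Hochberg method, was under 0.05 and its fold change was above 2. In TIAR KO against WT, 2 of the 10 member probes rose, those of Mycn and Mnt, and 0 fell, against 5.76% of all probes called (3.39% higher and 2.37% lower). In TIA1 KO against WT, 1 of the 10 fell, the brighter probe of Mxd4, and 0 rose, against 3.54% of all probes called (2.18% higher and 1.36% lower). Between the knockouts 1 probe, the dimmer one of Mxd4, was higher in TIAR KO, against 3.35% of all probes called (1.72% higher and 1.63% lower). The calls of Mycn and of the dimmer Mxd4 probe meet the 2-fold limit by the fitted value only, because 1 group of each lay at background. The 2 comparisons with WT share the WT arrays.

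The same probes can be read by direction, with the fitted values of Mxi1, and of Mycn in TIA1 KO against WT, included although neither group was well above background. In TIAR KO against WT the members had a median log2 fold change of 0.28, beside -0.02 over all probes, and 8 of 10 were positive. In TIA1 KO against WT their median was -0.30, beside -0.09, and 7 of 10 were negative. Between TIAR KO and TIA1 KO it was 0.89, beside 0.05, and 9 of 10 were positive. Most probes of the array were dim. With dim probes left out, the array medians were -0.05, -0.26 and 0.23 in the same order. The member median of -0.30 in TIA1 KO was close to the -0.26 of the remaining probes, so it does not set the members apart there. The arrays of the groups did not overlap for 5 of 10 probes in TIAR KO against WT, 9 in TIA1 KO against WT and 9 between the knockouts, where the shares over all probes were 49.0%, 65.2% and 59.9%. At an unadjusted p under 0.05 the member counts were 4, 5 and 8, beside 20.2%, 27.8% and 22.6% of all probes.

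**Figure D2:**
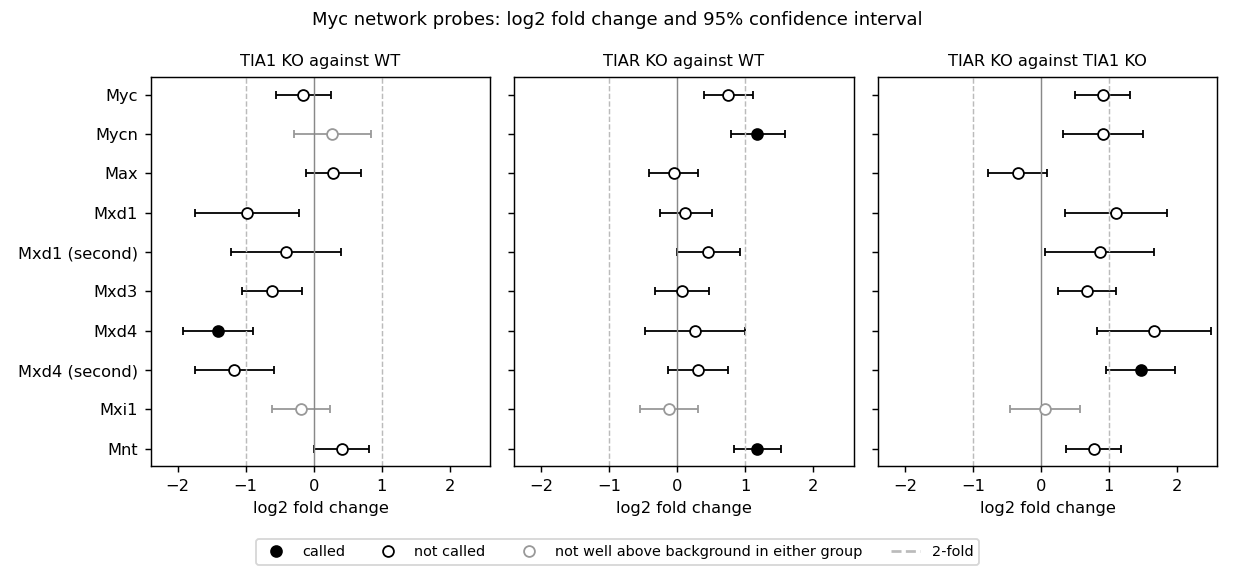
Log2 fold change (horizontal axis) of each member probe (vertical axis) with its 95% confidence interval from limma, in the 3 comparisons. Filled points were called, grey points were not well above background in either group, and dashed lines mark a 2-fold change. Filled points stand for Mycn and Mnt in TIAR KO against WT, Mxd4 in TIA1 KO against WT, and the second Mxd4 probe between the knockouts.

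Of the activating members, Myc was read by 1 probe spotted 2 times, at chr15:61821417-61821476 (mm9). Its levels were 12.51 and 12.58 in WT, 12.38 and 12.40 in TIA1 KO, and 13.25 and 13.35 in TIAR KO. Both TIAR KO arrays were above the other 4, and both TIA1 KO arrays were just below WT. In TIAR KO against WT the difference was 0.75 ± 0.14 (SE, n = 2 arrays per group), 1.69-fold, with a limma adjusted p of 0.0393, so it passed on the p-value and not on the fold. On the p-value alone 3 of the 10 member probes passed, beside 7.79% of all probes. In TIA1 KO against WT the difference was -0.16 ± 0.15 (adjusted p = 0.51), with a 95% interval from -0.56 to 0.25, which leaves out a 2-fold change either way under this normalization. Between TIAR KO and TIA1 KO it was 0.91 ± 0.15 and missed the threshold (adjusted p = 0.0675).

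Myc mRNA in TIAR KO stayed higher than in WT under all 13 alternatives, at 0.30 to 0.81 on the log2 scale, and its fold was never above 2. The adjusted p missed the threshold when any 1 of the 4 arrays was left out (0.111 to 0.153), and also with a normexp offset of 16 (0.0881), the 75th percentile scaling (0.365), a common median (0.321), the authors' log2 values (0.0535) and the replicate block (0.0693). In TIA1 KO the sign was negative under all 13. With a common median the Myc difference there was -1.76 and was called (limma adjusted p = 0.00212). Max went from 0.29 to -1.31 and Mnt from 0.41 to -1.20 under the same choice. The cofactor and Myc turnover lists described below had medians of -1.64 and -1.75. The array as a whole shifted less, from a median of -0.09 to -0.68. Beside those members and lists, the value of -1.76 does not set Myc apart.

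Mycn, which is used in place of Myc in many embryonic cells, lay near background. Its probe at chr12:12943193-12943252 (mm9) gave 6.77 and 6.66 in WT, 7.20 and 6.78 in TIA1 KO, and 8.01 and 7.79 in TIAR KO. Only the TIAR KO arrays were rated well above background, and both stood above the other 4. Mycn rose in TIAR KO, with a fitted difference of 1.18 ± 0.16 (limma adjusted p = 0.0128). Because WT gives only a bound, the rise is stated as at least 1.97-fold, with each WT array taken at the dimmest value that the scanner software still rated well above its background, or at the probe's measured value if that was brighter. The call was lost without WT array 2 (adjusted p = 0.0575) and without TIAR KO array 1 (adjusted p = 0.0652). Between the knockouts the level in TIAR KO was at least 1.41-fold higher, with an adjusted p of 0.125.

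Max, the shared partner of the network, had the smallest standard deviation over the 6 arrays among the members well above background on all of them. On its probe at chr12:78038272-78038331 (mm9) the levels were 13.45 and 13.47 in WT, 13.79 and 13.70 in TIA1 KO, and 13.34 and 13.47 in TIAR KO. The TIAR KO arrays overlapped with WT, and the TIA1 KO arrays were above both groups. The difference was -0.05 ± 0.14 in TIAR KO (adjusted p = 0.899), 0.29 ± 0.15 in TIA1 KO (adjusted p = 0.28) and -0.34 between the knockouts (adjusted p = 0.292). Its sign in TIA1 KO turned to -1.31 with a common median.

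Mnt, the member of the repressing arm that is made in growing as well as resting cells, had the lowest adjusted p of the members in TIAR KO against WT. Its probe at chr11:74658915-74658974 (mm9) gave 13.06 and 13.05 in WT, 13.50 and 13.42 in TIA1 KO, and 14.25 and 14.23 in TIAR KO. The 3 groups did not overlap, and the arrays of a group lay closer to each other than to those of any other group. Mnt rose 2.27-fold in TIAR KO, by 1.18 ± 0.14 on the log2 scale (limma adjusted p = 0.00847). In TIA1 KO the difference was 0.41 ± 0.15 (adjusted p = 0.178), and between the knockouts it was 0.78 ± 0.15 (adjusted p = 0.0894). The rise in TIAR KO was called under 9 of 13 alternatives. It missed the adjusted p without TIAR KO array 1 (0.0502), without array 2 (0.0519) and with the 75th percentile scaling (0.102), and with a common median it was 0.72, under 2-fold. A common median also turned its sign in TIA1 KO, to -1.20.

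Mxd4 fell in TIA1 KO. Its brighter probe, at chr5:34519323-34519382 (mm9), gave 11.26 and 10.96 in WT, 9.61 and 9.79 in TIA1 KO, and 10.98 and 11.76 in TIAR KO. Both TIA1 KO arrays were below all others by more than a 2-fold step, and the TIAR KO arrays spread across WT. The difference from WT was -1.41 ± 0.19, 2.65-fold (limma adjusted p = 0.0441). It stayed negative under all 13 alternatives, at -2.77 to -1.26, and was called under 5 of them. The call was lost without TIA1 KO array 1 (adjusted p = 0.0551), with a normexp offset of 16 (0.0574), without the loess (0.113), with the authors' log2 values (0.129) and with the replicate block (0.101). The other 3 alternatives, those without WT array 1 (0.343), without WT array 2 (0.306) and with the 75th percentile scaling (0.075), called 0 probes of the whole array and so say nothing of this probe. The second probe, at chr5:34519276-34519335 and so overlapping the first, gave 8.34 and 8.01 in WT, 6.84 and 7.17 in TIA1 KO and 8.50 and 8.44 in TIAR KO. It was not well above background in TIA1 KO, and the fall there was at least 1.49-fold with an adjusted p of 0.0779.

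In TIAR KO the Mxd4 probes differed from WT by 0.26 ± 0.29 (adjusted p = 0.711) and 0.30 (adjusted p = 0.432). Between the knockouts the brighter probe was higher in TIAR KO by 1.67 ± 0.31 (adjusted p = 0.0822). The second was higher by a fitted 1.47 ± 0.19 and passed (adjusted p = 0.0409), with a level at least 1.83-fold higher. That call was lost with the 75th percentile scaling (0.133), with the replicate block (0.14), without TIAR KO array 1 and without TIAR KO array 2, where limma called 0 probes of the whole array in this comparison, though 6318 and 6402 had an unadjusted p under 0.05.

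Mxd1, which is classically induced when cells differentiate, was lower in TIA1 KO on both of its probes, and neither difference passed. The probe at chr6:86599053-86599112 (mm9) gave 9.44 and 9.60 in WT, 8.20 and 8.88 in TIA1 KO, and 9.57 and 9.72 in TIAR KO. It differed by -0.98 ± 0.28 in TIA1 KO (adjusted p = 0.13), by 0.12 in TIAR KO (adjusted p = 0.747) and by 1.10 ± 0.28 between the knockouts (adjusted p = 0.135). The probe at chr6:86597190-86597249 gave 9.01 and 9.27 in WT, 8.38 and 9.09 in TIA1 KO, and 9.74 and 9.46 in TIAR KO, with differences of -0.40, 0.46 and 0.87 in the same order (adjusted p = 0.40, 0.244 and 0.203). On both probes TIA1 KO array 1 was not well above background.

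Mxd3, the family member tied to S phase in proliferating cells, showed the same order of groups. Its probe at chr13:55427000-55427059 (mm9) gave 10.54 and 10.75 in WT, 10.06 and 10.00 in TIA1 KO, and 10.64 and 10.79 in TIAR KO. TIA1 KO was below the other groups on both arrays, by -0.61 ± 0.16 against WT (adjusted p = 0.12) and 0.68 ± 0.16 against TIAR KO (adjusted p = 0.119). TIAR KO overlapped with WT, at 0.07 (adjusted p = 0.88). Mxi1, an antagonist of Myc in many tissues, was not well above background on any array (6.52 to 6.83 at chr19:53450238-53450297), so it has no fold change here.

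The 5 probes of Mxd1, Mxd3 and Mxd4 and that of Myc each had their lowest group mean in TIA1 KO and their highest in TIAR KO, while Mycn and Mnt had their lowest in WT and their highest in TIAR KO. Against WT only Mxd4 was called in TIA1 KO and only Mycn and Mnt in TIAR KO. The differences of Mxd1, Mxd3 and Mxd4 from WT in TIAR KO were small, and a common median turned the sign of the brighter Mxd1 and Mxd4 probes and of Mxd3. A common median moved the median of all probes to -0.68 in TIA1 KO, with 14184 probes called lower and 1857 higher. Myc, Mxd1 (brighter probe), Mxd3, both Mxd4 probes, Max and Mnt were all called lower there. The brighter Mxd4 probe stayed the lowest of the 10 at -2.77, beside -1.31 for Max and -1.20 for Mnt.

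**Figure D3:**
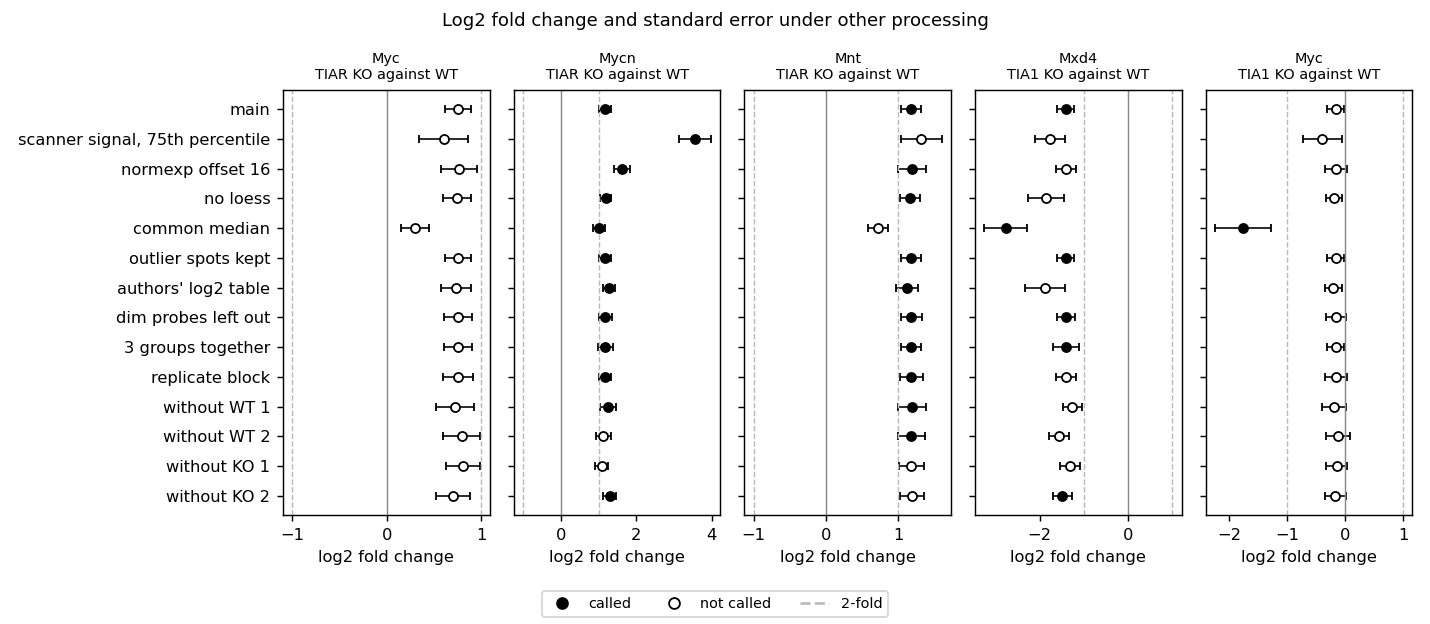
Log2 fold change (horizontal axis) with its standard error under the reported processing and 13 alternatives (vertical axis), for Myc, Mycn and Mnt in TIAR KO against WT and for Mxd4 and Myc in TIA1 KO against WT. Filled points were called, and dashed lines mark a 2-fold change. Myc in TIAR KO stays between 0.30 and 0.81 and is never called, while the common median moves Mxd4 to -2.77 and Myc to -1.76 in TIA1 KO.

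For the 2 members that varied most over the 6 arrays among those always well above background, Mxd4 and Mnt, the genes with the most similar levels were found by Pearson's r over the 6 arrays. For Mxd4 these included Nom1 (r = 0.989), a nucleolar protein, and Ogfod1 (0.979), out of 3690 mRNA genes compared. For Mnt they were Parm1 (r = 0.9996), Stk25 (0.998), a protein kinase, and Zrsr1 (0.998), a splicing factor gene, out of 6326. Parm1 went from 7.62 and 7.48 in WT to 10.08 and 9.56 in TIA1 KO and 13.85 and 13.79 in TIAR KO. With 3 groups of 2 arrays, r describes the order and spacing of the groups, and the arrays share slide and normalization.

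The rest of the pathway was read from lists, with the brightest probe standing for each gene. Over all genes read in this way, 4.51% were called in TIA1 KO, 7.18% in TIAR KO and 4.18% between the knockouts. Among 5 relatives that bind E-boxes or pair with Mlx or Max (Mycl, Mlx, Mlxip, Mlxipl and Mga), limma called 0 in any of the 3 comparisons, though 4 had an unadjusted p under 0.05 in TIA1 KO, 1 in TIAR KO and 2 between the knockouts, beside 27.8%, 20.2% and 22.6% of all probes. Mycl, 1 of the 4 and the only 1 in TIAR KO, was not well above background on any array. The differences of the other 4 from WT ran from -0.79 (Mga) to -0.03 (Mlxipl) in TIA1 KO and from -0.47 (Mlxipl) to 0.14 (Mga) in TIAR KO. Among 16 cofactors, including the Sin3 and histone deacetylase genes used by the Mxd proteins and the acetyltransferase complex used by Myc, limma called 0 in any comparison, and 3, 4 and 3 had an unadjusted p under 0.05 in the same order. Their medians were -0.20 in TIA1 KO and -0.32 in TIAR KO.

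Of 18 genes that govern the stability of Myc protein or the fate of Myc mRNA, limma called 0 in any comparison as well, with medians of -0.29 and -0.24, and 7, 6 and 6 had an unadjusted p under 0.05. Usp28, a deubiquitinase that protects Myc from degradation, was the only one to pass on the p-value alone. It measured 11.58 and 11.30 in WT, 11.16 and 11.14 in TIA1 KO, and 10.59 and 10.48 in TIAR KO, a difference of -0.90 ± 0.16 in TIAR KO, 1.87-fold lower (limma adjusted p = 0.0356). Both TIAR KO arrays were below the other 4. The counts of 0 depend on the processing. Between the knockouts 1 of these 18 genes was called higher and 1 lower with the 3 groups fitted together, and likewise without dim probes. With the 75th percentile scaling 1 of them was called higher in TIAR KO. With a common median 4 relatives, 13 cofactors and 15 of these 18 genes were called lower in TIA1 KO, 0, 1 and 3 lower in TIAR KO, and 3, 6 and 4 higher between the knockouts.

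Of the 65 genes that Myc is known to activate, 1 rose and 3 fell in TIAR KO, where 6.15% were called beside 7.18% of all genes. In TIA1 KO 1 rose and 5 fell, which is 9.23% beside 4.51% of all genes. These shares are not like for like, because most of the 65 were well above background and most probes of the array were not. With dim probes left out, 3336 of 25196 probes were called in TIAR KO and 2949 of 23442 in TIA1 KO. The ribosome biogenesis, metabolic and cell cycle lists then had 1, 0 and 0 higher and 0, 2 and 2 lower in TIAR KO. In TIA1 KO they had 1, 0 and 0 higher and 2, 3 and 1 lower. Of 23 ribosome biogenesis genes, all well above background on every array, 1 rose and 0 fell in TIAR KO (median -0.28), while 1 rose and 2 fell in TIA1 KO (median -0.41). Of 31 metabolic and translation genes, 0 rose and 2 fell in each knockout, with medians of -0.19 in TIAR KO and -0.38 in TIA1 KO. Of 11 cell cycle genes, 0 rose and 1 fell in each, with medians of 0.03 and -0.32. Between the knockouts limma called 0 genes of these 3 lists. With the 3 groups fitted together, 1 ribosome biogenesis gene was called higher in TIAR KO, and 1 metabolic gene higher and 1 lower. The counts were the same without dim probes. An unadjusted p under 0.05 was found for 19 of the 65 in TIA1 KO, 23 in TIAR KO and 27 between the knockouts. The shares over all probes were 27.8%, 20.2% and 22.6%. The medians of all probes were -0.02 in TIAR KO and -0.09 in TIA1 KO. With dim probes left out, the medians of the remaining probes were -0.05 and -0.26. Those of the 3 lists were then -0.28, -0.19 and 0.03 in TIAR KO and -0.41, -0.38 and -0.34 in TIA1 KO. In TIA1 KO these counts turn on the scaling. With a common median, where 14184 probes of the whole array were called lower, 21 ribosome biogenesis, 29 metabolic and 10 cell cycle genes were called lower and 0 higher, with medians of -1.98, -1.85 and -1.87 beside -0.68 over all probes. The relatives, cofactors and Myc turnover genes had medians of -1.75, -1.64 and -1.75 under the same scaling. In TIAR KO the same scaling called 2, 4 and 2 lower and 0 higher, and between the knockouts 11, 15 and 6 higher and 0 lower. With the 75th percentile scaling 0 genes of these lists were called in TIA1 KO, as for the whole array. In TIAR KO single arrays moved these small medians. Without TIAR KO array 1 the ribosome biogenesis median was -0.06 (0 called) and the metabolic median -0.05 (2 lower), and without TIAR KO array 2 they were -0.22 (2 lower) and -0.33 (1 lower). Without WT array 1 the ribosome biogenesis median was -0.18, and without WT array 2 0 metabolic genes were called. The cell cycle median ran from -0.10, without TIAR KO array 2, to 0.16, without TIAR KO array 1, where 3 were lower.

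**Figure D4:**
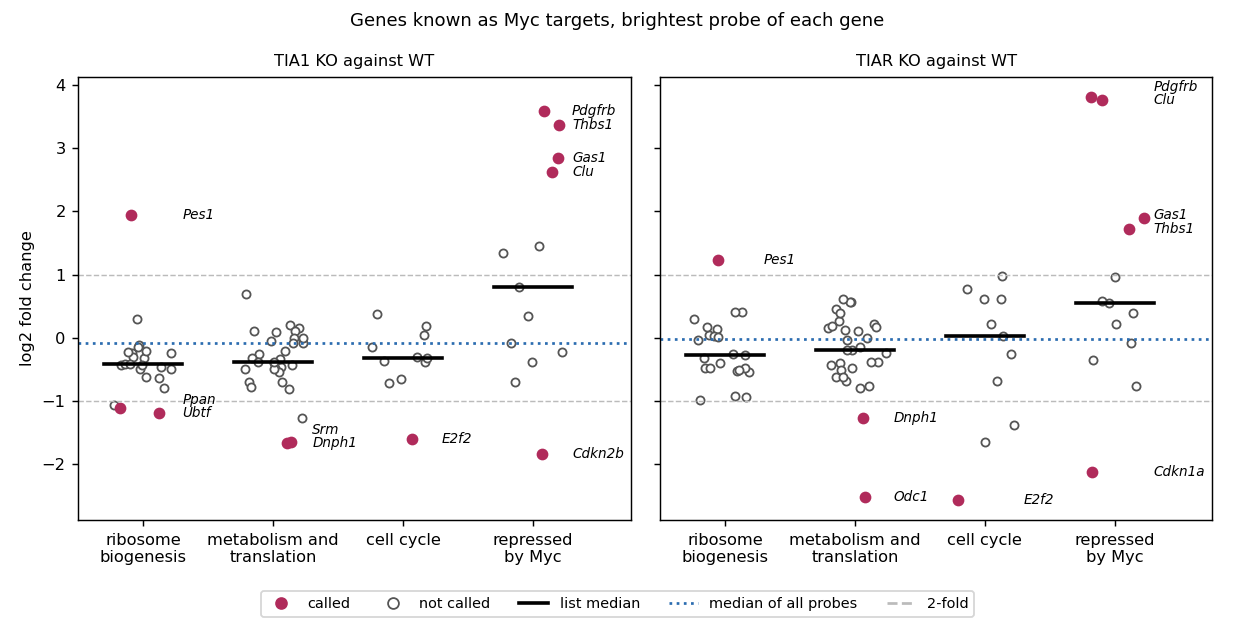
Log2 fold change (vertical axis) of each gene in 4 lists of genes known as Myc targets (horizontal axis), for TIA1 KO against WT and TIAR KO against WT, with the brightest probe of each gene. Filled, named points were called, the thick line is the median of the list, the dotted line the median of all probes, and dashed lines mark a 2-fold change. The medians of the repressed list are 0.81 and 0.55, and those of the other lists lie between -0.41 and 0.03.

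Odc1, the rate-limiting enzyme of polyamine synthesis and a classical Myc target, fell more in TIAR KO than any other gene of the metabolic list. It measured 15.75 and 16.22 in WT, 15.21 and 15.34 in TIA1 KO, and 13.92 and 13.01 in TIAR KO (chr12:17557831-17557890, mm9). Both TIAR KO arrays were below the other 4. The difference from WT was -2.52 ± 0.34, 5.72-fold (limma adjusted p = 0.0144), and was called under 12 of 13 alternatives, with -2.28 and an adjusted p of 0.0522 without WT array 2. All 4 Odc1 probes were lower in TIAR KO, at -1.61 to -2.66, and 3 of them were called. In TIA1 KO the brightest probe was at -0.71 ± 0.22 (adjusted p = 0.146) and 1 of the 4 was called, at -1.46.

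Srm, the next enzyme of the polyamine pathway, measured 16.35 and 16.34 in WT, 14.83 and 14.53 in TIA1 KO and 15.75 and 15.69 in TIAR KO (chr4:147968433-147968492). It fell 3.16-fold in TIA1 KO, by 1.66 ± 0.18 (adjusted p = 0.0292), and a second probe fell by 1.44. In TIAR KO it was at -0.62 ± 0.14 (adjusted p = 0.0627). Dnph1, a nucleotide hydrolase first cloned as a Myc-responsive gene, fell in both knockouts. Its levels were 14.98 and 15.34 in WT, 13.43 and 13.55 in TIA1 KO, and 14.00 and 13.78 in TIAR KO (chr17:46635952-46636011). The differences were -1.67 ± 0.20 in TIA1 KO (adjusted p = 0.0357) and -1.27 ± 0.19 in TIAR KO (adjusted p = 0.019), and the latter was lost without WT array 2 (adjusted p = 0.0633), TIAR KO array 1 (0.0672) or TIAR KO array 2 (0.10) and with the 75th percentile scaling (0.0968).

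Among the ribosome biogenesis genes Pes1, a factor of the large ribosomal subunit, was the only one called higher against WT. By sign alone, 2 of the 23 were positive in TIA1 KO and 9 in TIAR KO. Pes1 measured 11.66 and 12.26 in WT, 13.77 and 14.05 in TIA1 KO, and 13.21 and 13.18 in TIAR KO (chr11:3879948-3880007). It rose by 1.95 ± 0.27 in TIA1 KO (adjusted p = 0.0467) and by 1.23 ± 0.23 in TIAR KO (adjusted p = 0.0372). A second Pes1 probe, at 0.32 and 0.49, was not called in either. The rise in TIA1 KO was called under 5 of 13 alternatives and ranged from 0.35, with a common median (adjusted p = 0.568), to 2.25, without WT array 2 (0.284). The rise in TIAR KO was called under 8 of 13 and was lost without WT array 1 (adjusted p = 0.0762), without TIAR KO array 1 or array 2 (0.152 and 0.147), with a common median (0.158) and with the 75th percentile scaling (0.358). Ppan, which also acts in the maturation of that subunit, fell by 1.12 ± 0.15 in TIA1 KO (adjusted p = 0.043) and was at -0.48 ± 0.14 in TIAR KO (adjusted p = 0.124). Ubtf, the upstream binding factor of ribosomal RNA transcription, fell by 1.20 ± 0.15 in TIA1 KO (adjusted p = 0.038). The falls in TIA1 KO were called under 5 of 13 alternatives for Ppan, with an adjusted p of 0.0521 without TIA1 KO array 1, and under 7 of 13 for Ubtf. Neither was called with a normexp offset of 16, the authors' log2 values, the 75th percentile scaling or the replicate block, nor Ppan without the loess (adjusted p = 0.0505). The 2 Ubtf probes disagreed in TIAR KO, where the brighter was at 0.01 ± 0.17 and the dimmer fell by 1.01 (adjusted p = 0.0182).

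E2f2, a transcription factor of the entry into S phase, was the 1 cell cycle gene called, and it fell in both knockouts. It measured 12.81 and 12.64 in WT, 11.26 and 10.98 in TIA1 KO, and 10.31 and 10.00 in TIAR KO (chr4:135750562-135750621). The 3 groups did not overlap. The differences were -1.60 ± 0.18 in TIA1 KO (adjusted p = 0.0332) and -2.57 ± 0.18, or 5.93-fold, in TIAR KO (adjusted p = 0.00152). The fall in TIAR KO was called under all 13 alternatives, at -2.95 to -2.41. That in TIA1 KO was called under 8, and missed the adjusted p with the authors' log2 values (0.055) and the replicate block (0.0689), and in the 3 fits that called 0 probes of the whole array.

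Of 13 genes known to be repressed by Myc, 4 rose and 1 fell in each knockout, against the 7.18% and 4.51% of genes called, with medians of 0.55 in TIAR KO and 0.81 in TIA1 KO. With a common median 3 rose and 4 fell in TIA1 KO and the median turned to -0.69, beside -0.68 over all probes, while in TIAR KO 4 rose and 1 fell (median 0.11). The TIAR KO median was 0.88 without TIAR KO array 1, 0.22 without array 2 and 0.16 with the 75th percentile scaling, with 4, 4 and 3 higher and 1 lower in each. Gas1, Thbs1, Pdgfrb and Clu rose in both comparisons, which share the WT arrays. Clu, a secreted chaperone, measured 10.03 and 10.13 in WT, 12.76 and 12.66 in TIA1 KO, and 13.99 and 13.72 in TIAR KO (chr14:66600325-66600382). It rose by 2.63 ± 0.15 in TIA1 KO (adjusted p = 0.00856) and by 3.77 ± 0.16, or 13.7-fold, in TIAR KO (adjusted p = 0.000438). Thbs1, an extracellular inhibitor of blood vessel growth, measured 12.34 and 12.35 in WT, 15.65 and 15.77 in TIA1 KO, and 14.02 and 14.13 in TIAR KO (chr2:117952585-117952644). It rose by 3.37 ± 0.15 in TIA1 KO (adjusted p = 0.00557) and by 1.73 ± 0.14 in TIAR KO (adjusted p = 0.00271), and was lower in TIAR KO than in TIA1 KO by -1.64 ± 0.16 (adjusted p = 0.0245, and 0.286 and 0.279 without TIAR KO array 1 or array 2).

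Pdgfrb, the receptor for platelet-derived growth factor B, measured 9.77 and 8.86 in WT, 12.80 and 13.03 in TIA1 KO, and 13.32 and 12.94 in TIAR KO. It rose by 3.60 ± 0.35 in TIA1 KO (adjusted p = 0.0246) and by 3.81 ± 0.33 in TIAR KO (adjusted p = 0.00329). Gas1, a growth arrest gene, rose by 2.84 ± 0.16 in TIA1 KO (adjusted p = 0.00822) and by 1.90 ± 0.15 in TIAR KO (adjusted p = 0.00257) on its brightest probe, while its 2 dimmer probes were not called in either comparison. Pdgfrb is also 1 of the 9 fibroblast markers, and the rise of these 4 genes went with that of the marker list, whose summed log2 level was 114.20 and 112.58 in WT and between 134.91 and 145.15 in the knockouts. The part of fibroblast identity in the rise of these genes was not tested. In bulk RNA more cells of a type and more RNA per cell cannot be told apart.

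The cyclin-dependent kinase inhibitors of the same list were not called higher than WT in either knockout, and 1 was called lower in each. Cdkn1a, which encodes p21, measured 12.37 and 12.42 in WT, 13.24 and 13.17 in TIA1 KO, and 10.14 and 10.38 in TIAR KO (chr17:29237377-29237436). It fell by 2.13 ± 0.16 in TIAR KO, 4.39-fold (adjusted p = 0.00189), was at 0.81 ± 0.15 in TIA1 KO (adjusted p = 0.0776) and differed between the knockouts by -2.94 ± 0.17 (adjusted p = 0.00942, and 0.249 and 0.228 without TIAR KO array 1 or array 2). Cdkn2b, which encodes p15, measured 12.16 and 12.59 in WT, 10.67 and 10.41 in TIA1 KO and 12.76 and 12.76 in TIAR KO. It fell by 1.84 ± 0.23 in TIA1 KO (adjusted p = 0.0392) and was at 0.39 ± 0.19 in TIAR KO (adjusted p = 0.363). A second Cdkn2b probe was at -1.71 ± 0.32 in TIA1 KO and was not called (adjusted p = 0.0778). Cdkn1b, which encodes p27, measured 12.75 and 12.89 in WT, 12.00 and 12.24 in TIA1 KO and 13.73 and 13.84 in TIAR KO, a difference of 0.96 ± 0.15 in TIAR KO that passed on the p-value and not on the fold (adjusted p = 0.0211). A second Cdkn1b probe was at -0.09 there.

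In TIAR KO the falls of E2f2 and Cdkn1a and the rises of Clu, Gas1 and Pdgfrb were called under all 13 alternatives, Thbs1 under 12 (adjusted p = 0.056 with the 75th percentile scaling) and Odc1 under 12. In TIA1 KO against WT limma called 0 probes of the whole array without WT array 1 or without WT array 2, though 7202 and 7415 had an unadjusted p under 0.05, so the calls of that comparison named here needed both WT arrays, and the loss of any 1 call says nothing of that gene. It also called 0 with the 75th percentile scaling, where 27765 probes had an unadjusted p under 0.05. The differences kept their direction, with Clu at 1.11 to 2.69, Thbs1 at 1.78 to 3.43, E2f2 at -3.10 to -1.47 and Srm at -3.24 to -1.51 over the 13 alternatives.

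The promoter site was counted in these lists, with no test between them. CACGTG stood in the promoters of 12 of 27 metabolic and translation genes, 4 of 18 ribosome biogenesis genes, 2 of 9 cell cycle genes and 0 of 9 repressed genes that the table held, beside 2187 of 27025 gene symbols (8.09%). Of the target genes called against WT, Dnph1 and Pes1 had it, and they moved in opposite directions.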

How the data were processed

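The 3 kinds of MEF were profiled on 6 Agilent 1-colour mouse arrays, which shared 1 slide and 1 scan. The authors deposited each spot's intensity and local background as Feature Extraction 10.7.3.1 measured them, with quality flags and mm9 positions and without normalization. Normalized log2 values per probe, likewise deposited by the authors, served as an alternative. On the same array they had r = 0.997 to 0.999 with the values here when outlier spots were kept.

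Mean intensity and median background were corrected by normexp (offset 50), log2 transformed, passed 1 time through loess and quantile normalized. Control and outlier spots were left out, and spots of a probe averaged. Of 55681 probes none was left out for being dim. A probe counted as well above background if the software rated no less than 50% of its spots so. The number of arrays limits the precision. For each comparison limma (lmFit, then eBayes) was run on the 4 arrays concerned. Calls needed a fold above 2 and, after Benjamini-Hochberg adjustment, a p under 0.05, as in the study's methods.

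Genes were named by rule: Tia1 and Tial1, all members with every probe, from each list up to 4 called genes with the largest change, read from the brightest probe, and the 3 genes most like the 2 most variable members, of which 1 is not reported here. Gas1, Cdkn1b, Cdkn2b, Usp28 and the marker genes were named outside it, after their values were seen. The members and lists were chosen with earlier results of these data known. The lists were E-box relatives, cofactors, Myc turnover, ribosome biogenesis, metabolism and translation, cell cycle, repressed genes, and fibroblast, epithelial, macrophage and endothelial markers, all of whose genes had a probe. Promoters came from RefSeq (GRCm38.p6). The 13 alternatives changed the scaling, background offset, loess, outlier spots, dim probes, groups in the fit, source of values or replicate block, or left out 1 array, after which the lone array of its group was taken to vary as the other group does. The main fit of each comparison was run on simulated data with planted changes larger than those of the members. The alternatives were not run on simulated data. Tools were R 4.3.3, limma 3.58.1, Python and pandas 2.3.3.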

Additional observations from a re-analysis of the deposited data

Results flagged for a closer look

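Several genes differed between the 2 knockouts themselves. The dimmer Mxd4 probe was higher in TIAR KO than in TIA1 KO by a fitted log2 difference of 1.47, which passed limma's test of that difference (adjusted p = 0.0409). Because TIA1 KO lay at background for this probe, the measured bound is at least 1.83-fold, under the 2-fold limit. Among the genes known to be repressed by Myc, the same test called Cdkn1a lower in TIAR KO by -2.94, Thbs1 lower by -1.64, Cdkn1b higher by 1.66 and Cdkn2b higher by 2.22 (adjusted p = 0.00942, 0.0245, 0.0285 and 0.0158). These calls were lost without TIAR KO array 1, without TIAR KO array 2, with the replicate block and with the 75th percentile scaling. That of Thbs1 was also lost with a common median (-0.53, adjusted p = 0.396). Leaving out either TIAR KO array, or using the block, ended every call of the whole array in this comparison. Over the 13 alternatives the differences were -3.06 to -1.83 for Cdkn1a, 1.55 to 2.83 for Cdkn1b and 2.09 to 3.33 for Cdkn2b. Those of Thbs1 were -1.7 to -0.53, and those of the dimmer Mxd4 probe 1.3 to 1.72.

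Myc and Mxd1 were picked out because both arrays of TIAR KO lay above the WT mean and both arrays of TIA1 KO below it. The TIAR KO minus TIA1 KO difference was 0.91 for Myc, 1.10 for the brighter and 0.87 for the dimmer Mxd1 probe, and limma's test of the difference missed the threshold for each (adjusted p = 0.0675, 0.135 and 0.203).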

How the results depend on the processing

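Of the members called, 1 in TIA1 KO against WT, 2 in TIAR KO against WT and 1 between the knockouts, the counts held only in part. The scanner's signal scaled to the 75th percentile gave 0, 1 and 0, a common median 7, 1 and 7, leaving out dim probes 2, 2 and 2, and fitting the 3 groups together 2, 2 and 2. In TIA1 KO against WT a normexp offset of 16, leaving out the loess and the authors' table each gave 0. Leaving out 1 array gave 0 to 3 in TIA1 KO, 0 to 2 in TIAR KO and 0 to 4 between the knockouts. Of all probes, 1969, 3206 and 1866 were called, against 16041, 4179 and 8416 with a common median (1857, 1403 and 7334 higher), 0, 2526 and 1509 with the 75th percentile (27765 at an unadjusted p under 0.05 in TIA1 KO), and 2949, 3336 and 2925 without dim probes. Fitting the 3 groups together called 3986 in TIA1 KO and 3183 between the knockouts, and the authors' own values 1293 in TIA1 KO. Leaving out 1 array called 0 to 10735 in TIA1 KO and 0 to 10086 between the knockouts. The median over all probes moved to 1.98 in TIA1 KO and -1.85 between the knockouts with the 75th percentile, and to -0.68 and 0.63 with a common median.

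The labels number the arrays of each group 1 and 2, and the deviations of same-numbered arrays from their group means correlated at 0.08, 0.03 and -0.07, so the numbers were not taken to pair the samples. With the replicate block, 0 members were called in TIA1 KO, 2 in TIAR KO and 0 between the knockouts, and 671, 3308 and 0 of all probes (10684 of the last at an unadjusted p under 0.05). In TIA1 KO it left Gas1, Thbs1 and Clu called among the target genes.

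Some fitted differences changed sign, those of Mxi1 included, which was not well above background on any array and gives no measured fold. With the 75th percentile these were Mxi1 in TIA1 KO (3.04), in TIAR KO (0.00) and between the knockouts (-3.03) and Mxd3 in TIAR KO (-0.10). With a common median they were Max (-1.31) and Mnt (-1.20) in TIA1 KO, Mxd1 (-0.10), Mxd3 (-0.27) and Mxd4 (-0.11) in TIAR KO and Max between the knockouts (0.82). Leaving out 1 array gave Mxd3 in TIAR KO values of -0.03 to 0.17 (negative without WT array 1 or TIAR KO array 2), Max -0.12 to 0.02 (positive without TIAR KO array 1), Mxd4 -0.12 to 0.65 (negative without TIAR KO array 2), Mxi1 -0.28 to 0.03 (positive without TIAR KO array 2), and Mxi1 between the knockouts -0.09 to 0.22 (negative without TIA1 KO array 2 or TIAR KO array 1). None of these was called in the reported fit, and the cause was not tested. Over members, called targets and targeted genes, 618 of 761 values kept their direction and side of the threshold, 17 changed sign, 103 were no longer called and 23 became called. Signal over background limits Mycn, Mxi1, Mxd1 and the dimmer Mxd4 probe.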
